A study of Rattus norvegicus with 20 samples.

Results

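The secreted Wnt ligands Wnt2, Wnt5a, Wnt5b, Wnt7b and Wnt10a, the secreted antagonists Sfrp1, Sfrp2, Sfrp4 and Dkk3, and the nuclear factor Lef1 were followed through rat mammary cancers and normal mammary tissue. Members were found as probes whose RefSeq accession maps to one of these 10 symbols. That match gave 6 probes for 5 members, namely Wnt5a, Wnt7b, Sfrp4 (2 probes), Dkk3 and Lef1, among 36038 genes tested in all. All 6 probes passed the filter on dim probes. Wnt2, Wnt5b, Wnt10a, Sfrp1 and Sfrp2 had no probe that matched and are not analysed here.

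The tissues came from female Sprague-Dawley (Jcl:SD) rats. Obesity-prone (OP) and obesity-resistant (OR) rats were the heavier and lighter animals on food with 45 kcal% fat, sorted by weight at 7 weeks of age, and lean controls (LC) had food with 10 kcal% fat. The treatment protocol given for every sample, normal tissue included, describes a single whole-body dose of 4 Gy of gamma rays at 7 weeks (0.5 Gy per minute) and 30 weeks of watching for palpable tumours. The arrays covered 12 adenocarcinomas (6 OP, 3 OR and 3 LC), picked for even histology with no necrosis and few infiltrating cells, and 8 normal tissues (3 OP, 2 OR and 3 LC) from rats of matched age. The labels do not say of each sample that it came from a different rat, so each p-value reflects only how much these samples vary.

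Wnt proteins are secreted, lipid-bearing ligands that bind Frizzled receptors together with co-receptors such as Lrp5, Lrp6, Ror and Ryk. In the canonical branch they keep beta-catenin from being degraded, and beta-catenin then joins TCF and LEF factors on target genes, while other Wnts act through cell polarity and calcium signals instead. Secreted Frizzled-related proteins such as Sfrp4 bind Wnts outside the cell, and Dickkopf proteins mostly act on the co-receptors. In the mammary gland Wnt signals are known for placode formation in the embryo and for ductal branching and stem cell upkeep later, and ectopic Wnt1 in mice gives mammary tumours.

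Levels below are log2 intensities of 1-colour arrays after background correction and quantile normalization, and differences are cancer minus normal tissue on that log2 scale unless another pair is named. The number of arrays, 20, limits the precision. The arrays lay on 5 slides scanned on 2 days, and all 8 arrays of the first day held cancers. Between 61.3% and 79.3% of the probes were well above background on cancer arrays, against 87.7% to 97.7% on normal tissue arrays. Cell type markers moved with tissue too. All 9 adipocyte genes tested fell in cancers and all 10 luminal epithelial genes rose, while 8 of 9 fibroblast and matrix genes and 4 of 4 endothelial genes fell. The mean level of the adipocyte list was 7.10 to 7.55 in cancers and 11.77 to 12.63 in normal tissue, and that of the luminal list was 12.74 to 13.62 in cancers and 9.87 to 12.10 in normal tissue. In such bulk samples, fewer cells of a type and less RNA per cell cannot be told apart, and the part of cell makeup in the results below was not tested.

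Of the 5 members tested, Wnt5a and Lef1 rose in the cancers, and Wnt7b, Dkk3 and Sfrp4 did not pass the test (limma, Benjamini-Hochberg adjusted p under 0.05 over all genes). Among all genes, 62.4% passed this comparison, 29% of all genes higher and 33.5% lower in cancers, so 2 of 5 is no larger a share than the background. The median difference of the 5 members was 0.13, beside -0.03 for all genes.

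Wnt5a, a ligand best known for signalling without beta-catenin and for restraining ductal growth in the mouse mammary gland, had the clearest difference. Its level in OP cancers was 7.98 at the lowest, 8.48 at the median and 10.01 at the highest. In OR cancers it was 9.05, 9.93 and 8.25, and in LC cancers 9.60, 9.03 and 10.93. The cancers varied widely, with LC replicate 3 at the top. Normal tissue was far more even, at 7.10, 6.93 and 7.32 in OP rats, 7.30 and 7.05 in OR rats, and 6.94, 7.53 and 7.28 in LC rats. Every cancer lay above every normal tissue, a pattern that 8.64% of all genes showed, and the probe was well above background on all 20 arrays. The mean was 9.23 ± 0.88 in cancers (SD, n = 12) and 7.18 ± 0.21 in normal tissue (SD, n = 8). The difference of 2.05 ± 0.30 (SE) corresponds to 4.15-fold (95% interval 2.68 to 6.42), with an adjusted p of 2.09e-05 by limma. Within the slides that held both tissues the difference was 1.96 on slide 1, 1.08 on slide 2 and 1.83 on slide 3. Slide 1 held 2 cancers and 2 normal tissues, and slides 2 and 3 each held 1 cancer and 3 normal tissues.

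The difference in Wnt5a passed in each obesity group. It was 1.65 in OP rats (adjusted p = 0.00731), 1.90 in OR rats (adjusted p = 0.0224) and 2.61 in LC rats (adjusted p = 9.90e-04, limma). Of all genes, 44.5% passed in OP rats, 28.4% in OR rats and 43.6% in LC rats, where Wnt5a and 1 other member passed in OP and in LC and Wnt5a alone in OR. The OR result was lost without OR cancer replicate 2 (1.47, adjusted p = 0.0859), OR normal tissue replicate 1 (2.02, adjusted p = 0.0758) or OR normal tissue replicate 2 (1.77, adjusted p = 0.150). Over all genes the 10238 that passed in OR rats became 6323 and 3588 without those normal tissues. A block for slide ended the OR call (1.82, adjusted p = 0.113) and the OP call (1.26, adjusted p = 0.150), and a block for scan day ended the OR call (1.62, adjusted p = 0.0717). The OP difference was smaller than the LC one by 0.96, with a 95% interval of -2.40 to 0.49 and an adjusted p of 0.757 (of all genes 0% passed this test), so the obesity groups were not shown to differ in it. That share of 0% depended on single arrays and on the model, with 758 genes passing without LC normal tissue replicate 1, 60 without replicate 2, 59 with a slide block and 1390 with array weights, none of them a member.

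**Figure D1:**
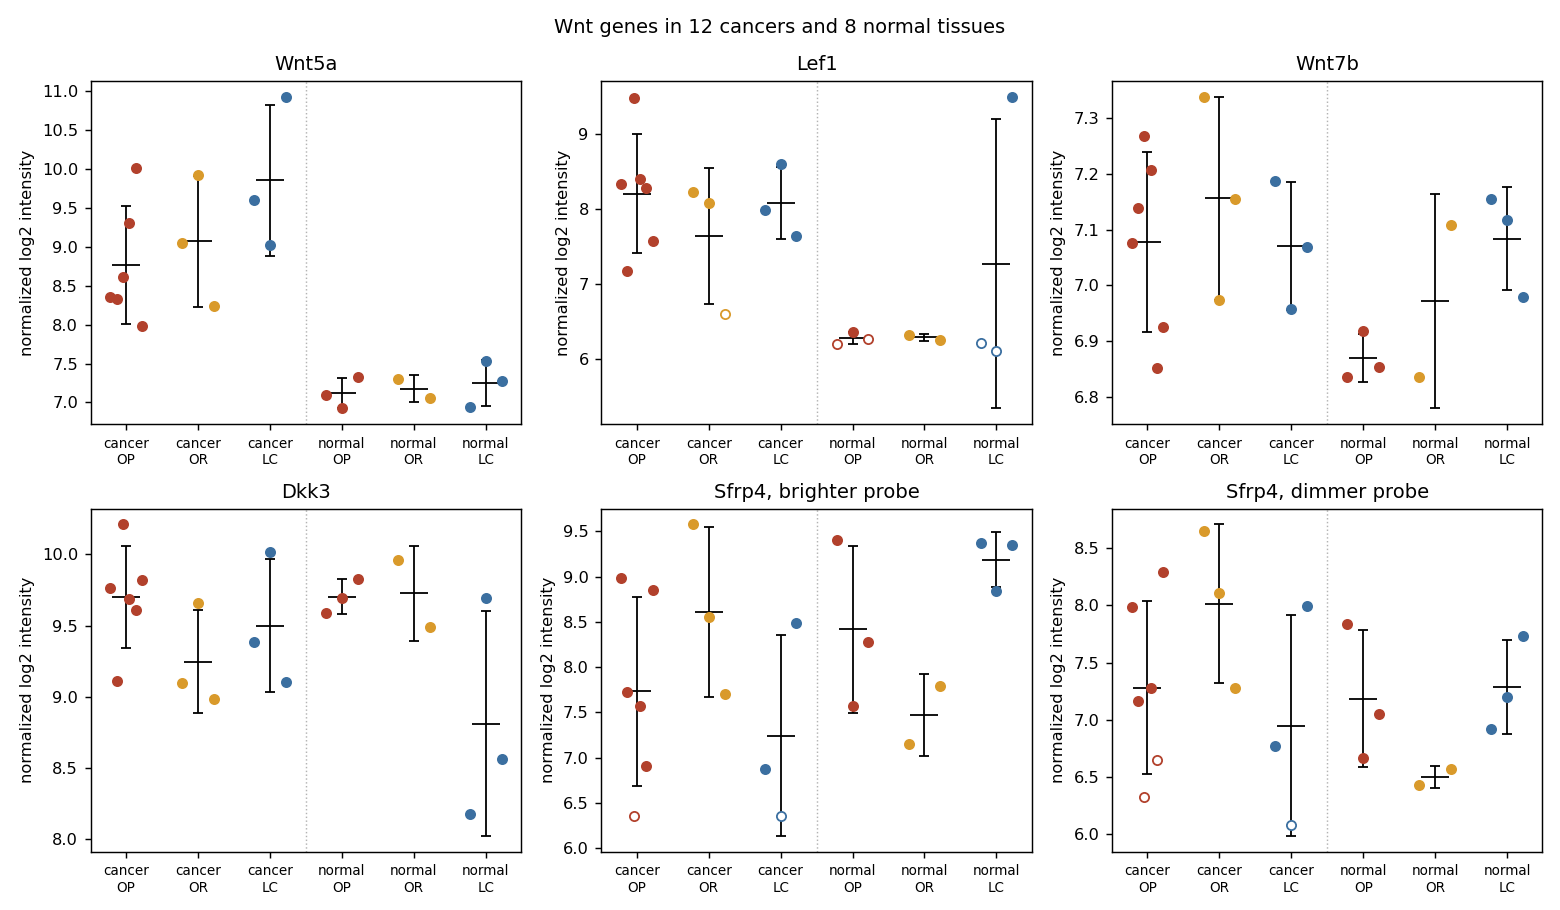
Normalized log2 intensity (y axes, ranges differ by panel) of each Wnt probe in the 6 groups (x axes). Each point is 1 array, filled where the probe was well above background, and bars give the group mean and SD. In the Wnt5a panel all 12 cancers lie above all 8 normal tissues, and in the Lef1 panel 1 LC normal tissue stands at 9.50.

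Lef1, a DNA-binding partner of beta-catenin that the embryonic mammary bud requires in mice and that T lymphocytes also use, was the other member that rose. Its level in OP cancers ranged around a median of 8.31, with a lowest value of 7.17 and a highest of 9.48. OR cancers had 8.24, 8.09 and 6.60, and LC cancers had 7.99, 8.60 and 7.65. Normal tissue of OP rats had 6.20, 6.36 and 6.27, that of OR rats 6.32 and 6.26, and that of LC rats 6.22, 6.10 and 9.50. All 12 cancers were above 7 of the 8 normal tissues, and the remaining one, LC replicate 3, was above every cancer. The probe was well above background on 11 of 12 cancer arrays and on 4 of 8 normal tissue arrays, so the low normal levels lie near background. The mean was 7.98 ± 0.73 in cancers (SD, n = 12) and 6.61 ± 1.15 in normal tissue (SD, n = 8). The difference was 1.36 ± 0.42 (SE), or 2.57-fold (95% interval 1.39 to 4.75), with an adjusted p of 0.00957 by limma.

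The LC normal tissue with high Lef1 also stood apart in T and NK cell genes. The mean of the 9 such genes tested was 11.00 there, against 7.75 to 8.22 in the other 7 normal tissues, and lay between 7.61 and 9.67 in the cancers. In 7 of the 9 genes that tissue was the highest of the normal tissues. Cd3d, part of the T cell receptor complex and the brightest of these genes there, was 15.14 in it, against 9.42 to 10.47 in the other normal tissues and 8.95 to 12.56 in cancers. Its defining markers Cd3d and Cd3g were well above background on all 20 arrays. Without this tissue the Lef1 difference was 1.73 (adjusted p = 8.58e-05), and in LC rats it was 1.92 (adjusted p = 0.00904) in place of 0.81 with it (adjusted p = 0.388, limma). The tissue was singled out by its high Lef1 level, so leaving it out was bound to raise the difference, and these p-values add no support. Among the cancers, OP replicate 6 had the highest T and NK cell mean, 9.67, and a Lef1 level of 7.57, below the cancer median. The part of T cells in the Lef1 levels was not tested further.

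**Figure D2:**
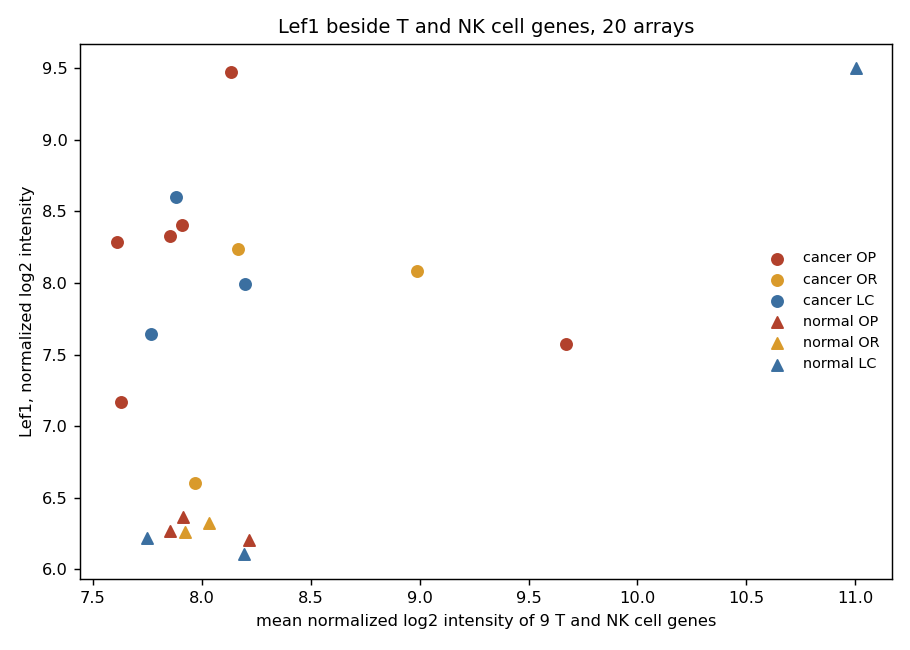
Lef1 level (y axis, normalized log2 intensity) against the mean level of 9 T and NK cell genes (x axis, same unit) on 20 arrays, circles for cancers and triangles for normal tissue, coloured by obesity group. The LC normal tissue at 11.00 and 9.50 stands apart from the other 7, which lie at 6.10 to 6.36 for Lef1.

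By obesity group, the Lef1 difference was 1.93 in OP rats (adjusted p = 0.0201) and 1.35 in OR rats (adjusted p = 0.228). The OP result was lost without any single OP normal tissue, at 1.89, 1.97 and 1.92 without replicates 1, 2 and 3 (adjusted p = 0.0602, 0.0577 and 0.0519). Within slides it was 1.95, 0.91 and 0.89 on slides 1, 2 and 3, which held 2, 1 and 1 cancers. Slide 3 also held the LC normal tissue with high T cell genes. When slide was added to the model as a block, the value over all arrays was 1.40 and no longer passed (adjusted p = 0.0558). A block for scan day gave 1.26 (adjusted p = 0.0735). A block for slide, with that tissue left out after its Lef1 level was seen, gave 1.69 (adjusted p = 0.00596), which adds no support for the same reason. The differences in OP and LC rats were not shown to differ (1.12, 95% interval -0.91 to 3.15, adjusted p = 0.806).

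**Figure D3:**
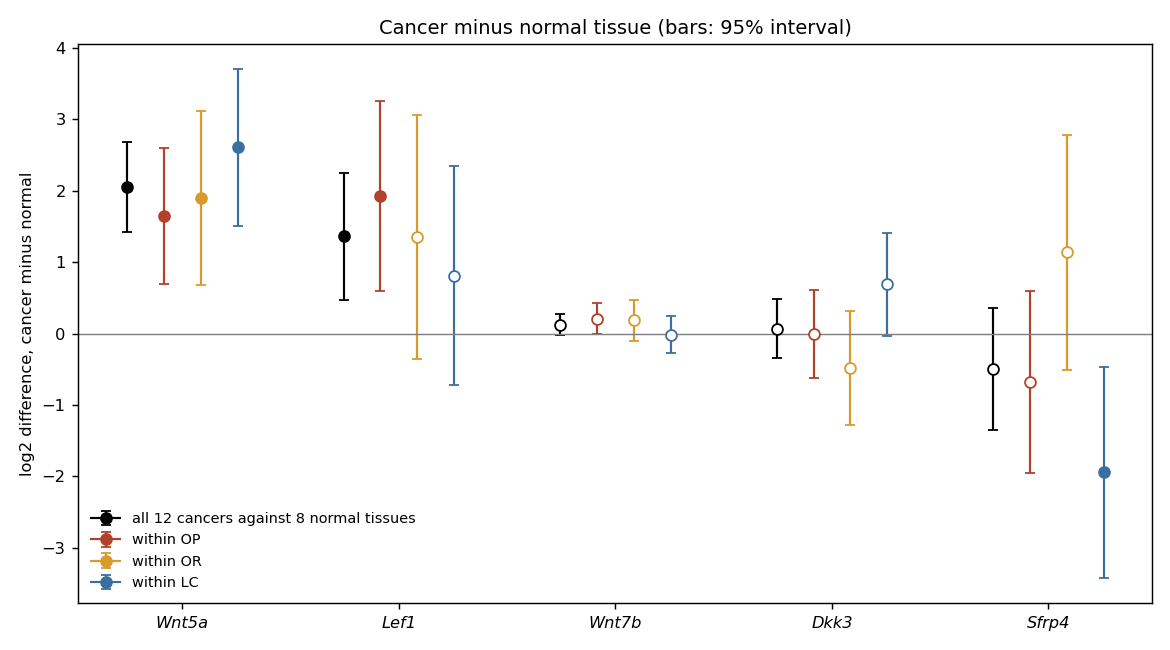
Cancer minus normal tissue on the log2 scale (y axis) for the 5 Wnt genes (x axis), over all arrays and within OP, OR and LC rats. Bars are 95% intervals and filled points passed an adjusted p of 0.05. Wnt5a passed in all 4 comparisons, and Sfrp4 passed in LC rats only, where it was lower in cancers.

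Wnt5a and Lef1 were also the only tested members with an entry in RefSeq's promoter table (assembly GRCr8), and their promoters are shown because both genes rose in the cancers. Each window runs from 250 bases before to 50 bases after the gene's start, and capitals mark a GC box.
Wnt5a, chr16:3703415-3703714, plus strand: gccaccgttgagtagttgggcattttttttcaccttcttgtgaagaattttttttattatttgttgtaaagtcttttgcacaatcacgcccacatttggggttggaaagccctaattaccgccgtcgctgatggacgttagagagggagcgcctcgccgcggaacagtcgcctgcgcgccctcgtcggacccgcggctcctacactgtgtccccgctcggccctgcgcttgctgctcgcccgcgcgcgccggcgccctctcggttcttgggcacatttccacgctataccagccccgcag
Lef1, chr2:222340463-222340762, plus strand: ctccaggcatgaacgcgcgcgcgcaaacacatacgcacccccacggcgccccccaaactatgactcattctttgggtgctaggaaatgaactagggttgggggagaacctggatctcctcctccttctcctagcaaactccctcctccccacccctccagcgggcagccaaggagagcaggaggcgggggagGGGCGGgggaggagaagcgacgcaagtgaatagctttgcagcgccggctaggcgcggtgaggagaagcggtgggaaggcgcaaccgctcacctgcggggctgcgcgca
The core of the TCF/LEF site, CTTTGA on either strand, was found in neither window and in 16.1% of 33469 rat promoters of the same length. The GC box GGGCGG, also sought on both strands, was found once in the Lef1 window, at position -58 from the start, and not in the Wnt5a window, while 33.1% of all promoters held it. The G and C content was 58.3% for Wnt5a and 64.7% for Lef1, beside a median of 51.7% over all promoters. These matches describe letters in the windows and were not tested against the expression values.

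Wnt7b, a ligand made by ductal epithelium that signals through beta-catenin in several tissues, stayed within a narrow band. Its level in OP cancers was 6.85 to 7.27 with a median of 7.11, in OR cancers 7.34, 6.97 and 7.15, and in LC cancers 7.19, 6.96 and 7.07. In normal tissue it was 6.84, 6.92 and 6.85 in OP rats, 6.84 and 7.11 in OR rats, and 7.16, 7.12 and 6.98 in LC rats. The tissues overlapped, with 4 of 12 cancers above every normal tissue. The difference was 0.13 ± 0.07 (SE; 95% interval -0.02 to 0.27, adjusted p = 0.120). This small value depended on scaling. With each array's processed signal scaled to its 75th percentile it was -1.32 (adjusted p = 1.62e-05), where the median of all genes was -1.49. It was -1.32 in the authors' deposited table, where that median was -0.24, and -0.87 after normexp and the 75th percentile, where it was -0.78. The deposited table has the same 75th percentile scaling but held 18349 of the 36038 genes, so its median is of another set of genes. Against the median of all 36038 genes, Wnt7b lay above it with quantile normalization and by the 75th percentile. It lay below that median after normexp and the 75th percentile.

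Dkk3, a divergent Dickkopf protein that is silenced in several human tumour types, had close means in both tissues. OP cancers had 9.11 at the lowest, 9.73 at the median and 10.21 at the highest, OR cancers had 9.10, 9.66 and 8.99, and LC cancers 9.39, 10.01 and 9.10. Normal tissue had 9.59, 9.70 and 9.83 in OP rats, 9.96 and 9.49 in OR rats, and 8.18, 9.70 and 8.57 in LC rats. The lowest values of all were those of LC normal tissue replicates 1 and 3, and otherwise the tissues overlapped. The same arrays were the lowest of the normal tissues for the luminal list, at 9.87 and 10.52 against 11.77 to 12.10, and for the basal list, at 9.99 and 9.85 against 10.79 to 11.30, and the part of this in Dkk3 was not tested. The difference was 0.07 (95% interval -0.34 to 0.48, adjusted p = 0.777). In LC rats it was 0.69 (adjusted p = 0.110), and 1.13 (adjusted p = 0.00774) without LC normal tissue replicate 2.

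Sfrp4, a secreted Frizzled-related protein found in stroma, had a wide spread and probes that disagreed. On the brighter probe OP cancers had 6.36 at the lowest, 7.65 at the median and 8.98 at the highest. OR cancers had 9.58, 8.55 and 7.71, and LC cancers had 6.88, 6.36 and 8.49. Normal tissue had 9.40, 7.57 and 8.28 in OP rats, 7.15 and 7.79 in OR rats, and 9.37, 8.84 and 9.35 in LC rats. All 3 LC cancers lay below all 3 LC normal tissues, whereas in OR rats the cancers overlapped with and mostly exceeded the normal tissue. How many of all genes split this way in 3 against 3 arrays was not counted, and 43.6% of all genes passed in LC rats. Over all arrays the difference was -0.50 (95% interval -1.35 to 0.35, adjusted p = 0.295). It was -0.68 in OP rats (adjusted p = 0.376), 1.14 in OR rats (adjusted p = 0.294) and -1.94 in LC rats (adjusted p = 0.0328, limma).

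The fall of Sfrp4 in LC rats depended on the probe, on single arrays and on the model. It was lost with a block for slide (-1.95, adjusted p = 0.0901) or scan day (-1.48, adjusted p = 0.131), with array weights (-1.84, adjusted p = 0.0504) and with LC arrays alone (-1.94, adjusted p = 0.0558). On the dimmer probe the LC difference was -0.34 (adjusted p = 0.633), and the value over all arrays was 0.42 (adjusted p = 0.239), opposite in sign to the brighter probe. On that probe LC cancers had 6.77, 6.09 and 7.99, and LC normal tissue had 6.92, 7.20 and 7.73. On the brighter probe it was also lost without LC cancer replicate 1 (-1.76, adjusted p = 0.0986) or 2 (-1.50, adjusted p = 0.135), and without LC normal tissue replicate 1 (-1.85, adjusted p = 0.0824) or 3 (-1.86, adjusted p = 0.0695). The OP difference exceeded the LC one by 1.26 (95% interval -0.69 to 3.21, adjusted p = 0.764), and the OP difference was below the OR one by 1.82 (95% interval -3.90 to 0.26), so neither pair of obesity groups was shown to differ. The brighter probe was well above background on 10 of 12 cancer arrays and all 8 normal tissue arrays. Within slides the difference was -1.45, -0.13 and 1.10 on slides 1, 2 and 3, which held 2, 1 and 1 cancers. The fibroblast and matrix list averaged 11.45 to 14.06 in cancers and 12.94 to 14.45 in normal tissue, and its part in the Sfrp4 levels was not tested.

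Between obesity groups of the same tissue no member passed. Across all genes the share that passed was 0% in each of these comparisons, OP against OR, OP against LC, OR against LC, and OP against the mean of the other groups, in cancers and in normal tissue. These zeros likewise depended on single arrays and on array weights. Without OP cancer replicate 6, 516 genes passed for OP against the other cancers, 214 for OP against LC and 45 for OP against OR, and array weights gave 313, 182 and 1. Without LC normal tissue replicate 1, 659 genes passed for OP against LC and 828 for OR against LC normal tissue. No member was among them. The share of genes with an unadjusted p under 0.05 (limma) ran from 4.18% to 11.4% among the cancer comparisons and from 0.613% to 8.98% among those of normal tissue. The Wnt5a means ordered the cancers as 8.77 for OP, 9.07 for OR and 9.85 for LC, and no step exceeded the spread. OP cancers were lower than LC cancers by 1.09 (95% interval -2.24 to 0.07, unadjusted p = 0.0632, adjusted p = 0.720, limma). In normal tissue the Wnt5a means were 7.12 in OP, 7.18 in OR and 7.25 in LC rats.

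Sfrp4 had the smallest unadjusted p of the members, in normal tissue. OP normal tissue averaged 8.42, OR normal tissue 7.47 and LC normal tissue 9.19, and the difference of OR from LC was -1.71 (95% interval -2.95 to -0.48, unadjusted p = 0.0138, adjusted p = 0.394, limma). Both OR normal tissues lay below all 3 LC ones, and how many of all genes did so was not counted. In cancers the order differed, with means of 7.73 in OP, 8.61 in OR and 7.24 in LC rats, and the OR minus LC difference was 1.37 (95% interval -0.30 to 3.04). Dkk3 averaged 9.70 in OP, 9.73 in OR and 8.81 in LC normal tissue, where OP exceeded LC by 0.89 (95% interval -0.01 to 1.80, adjusted p = 0.573). The Lef1 means of normal tissue, 6.28 in OP, 6.29 in OR and 7.27 in LC rats, carry the 1 LC tissue described above. The largest Wnt7b difference between obesity groups was that of OP from LC normal tissue, -0.21 (95% interval -0.45 to 0.02). Intervals for Sfrp4, Lef1 and Wnt5a in cancers reached past 1 log2 unit to at least one side, so differences of that size lie within the intervals.

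**Figure D4:**
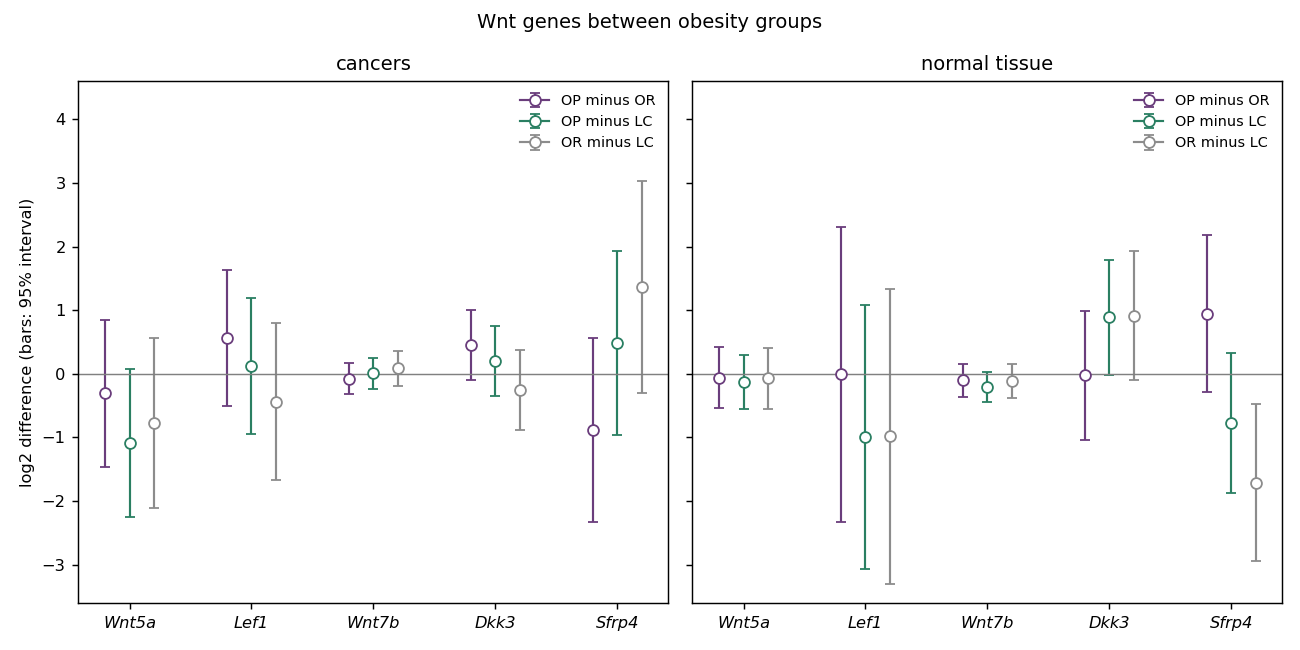
Differences between obesity groups on the log2 scale (y axes) for the 5 Wnt genes (x axes) in cancers and in normal tissue, with 95% intervals. Open points mark that none passed an adjusted p of 0.05, and the interval of Sfrp4 for OR minus LC normal tissue, -2.95 to -0.48, leaves out 0.

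Across the 12 cancers, 10 pairs of members were compared after centring each gene on its obesity group. Dkk3 and Lef1 had an adjusted p under 0.05 by Pearson's r, 0.76 (permutation p = 0.00443, adjusted p = 0.0443). By Spearman's rho, 0.64, they did not (permutation p = 0.0280, adjusted p = 0.280). The permutations moved the centred values freely across obesity groups and did not count the group means taken out, so these p-values run too small. The adjusted p of 0.0443 therefore does not show that the pair passes. Without the 2 cancers farthest from the median of Dkk3, r was 0.62. Among the 8 cancers of the first scan day, without centring, r was 0.86 (exact permutation p = 0.00640, adjusted p = 0.0640 over the same 10 pairs), and the second day held 4 cancers, too few for a value. The other 9 pairs had adjusted p of 0.749 or more for r. Set against each array's share of probes well above background, r was -0.46 for Dkk3 (permutation p = 0.133, adjusted p = 0.562) and -0.38 for Lef1 (permutation p = 0.225, adjusted p = 0.562) over 5 such relations, and its part in the pair was not tested. Wnt5a and Lef1, which both rose, had r of 0.22 among the cancers (permutation p = 0.488).

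The genes most like each member over the same 12 cancer arrays, among 6623 named genes, are a description of shared patterns on shared arrays. For Wnt5a they were Aqp5, a water channel, with r of 0.92, then Ppp3cc and Adam9 with 0.89 and 0.88. For Lef1 they were Myo16, Tmub1 and Maf1 with 0.94, 0.93 and 0.92, and Maf1, a repressor of RNA polymerase III, also led for Dkk3 with 0.88, ahead of Ccdc32 and Mpv17. For Sfrp4 they were S100a6, a calcium-binding protein, with 0.92, Capn2 with 0.83 and Ggh with 0.82. For Wnt7b they were Arl4a with 0.89, Ift172 with 0.80 and Rabggta with 0.78.

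The setting of these members was drawn from 8 further lists of Wnt pathway genes, 111 genes of which 42 had a tested probe. In cancers 20 of the 42 rose and 7 fell, which is 64.3%, close to the 62.4% of all genes. The median difference was 0.40, against -0.03 for all genes. With slide as a block 13 rose and 4 fell. The count of all genes under that block is not set beside this, so the drop is not a result about these genes. With the 75th percentile of the processed signal as the scale 17 rose and 12 fell. On that scale 29109 of the 36038 genes passed, and 18.1% of those calls were higher in cancers. The median difference of the 42 genes was then 0.16, against -1.49 for all genes.

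Upstream of the receptors, the 1 other ligand tested and the 1 secretion gene tested rose. Wnt4, a ligand of progesterone-driven ductal side branching in mice, averaged 13.19 ± 0.57 in cancers and 10.96 ± 1.05 in normal tissue (SD, n = 12 and 8), a difference of 2.23 (adjusted p = 1.24e-06). Wls, the carrier that takes Wnt ligands to the cell surface, rose by 0.90 (adjusted p = 1.17e-05). Among 7 receptors and co-receptors 4 rose and 1 fell. Ryk, a co-receptor for Wnt5a in other settings, rose by 0.65 (adjusted p = 1.58e-04), and the Frizzled receptor Fzd3 by 0.83 (adjusted p = 2.05e-04). Fzd3 did not pass by the 75th percentile (0.24, adjusted p = 0.275), by normexp and the 75th percentile (0.10, adjusted p = 0.561) or in the authors' deposited table (0.24, adjusted p = 0.271), and Ryk did not pass in that table (0.28, adjusted p = 0.0692). Ryk has another probe, and the fit on that table may have used it. Fzd9 rose by 0.53 (adjusted p = 0.00413), but its sign turned with the arrays scaled to the 75th percentile. Fzd4 fell by 0.33 (adjusted p = 0.00178), and only 2 of 12 cancer arrays had it well above background. Lgr4, a receptor for R-spondins and the only one of its list tested, fell by 0.70 (adjusted p = 0.00357). A block for slide ended the calls of Fzd4, Fzd9 and Lgr4, and Lgr4 also did not pass by the 75th percentile or in the authors' deposited table.

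Of 4 other antagonists and their receptors, Kremen1, a receptor for Dickkopf proteins, rose by 0.57 (adjusted p = 6.07e-05), with a sign that turned under the 75th percentile scale. Sost, the Wnt inhibitor sclerostin, fell by 0.23 (adjusted p = 0.0251), a call that the slide block ended (adjusted p = 0.0645). Apcdd1 (-0.35, adjusted p = 0.0838) and Sostdc1 (0.05, adjusted p = 0.966) did not pass. Sostdc1 had an SD of 2.37 among the 12 cancers, against 0.61 among the 8 normal tissues.

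In the cytoplasm, 5 of 10 genes rose and 2 fell. Csnk1e, named here for its probes, is counted as risen by 0.41 on its brighter probe, while its dimmer probe gave -0.77. The casein kinase Csnk1d rose by 1.55 (adjusted p = 2.00e-06) and beta-catenin itself, Ctnnb1, by 0.88 (adjusted p = 6.42e-06). Their other probes gave smaller differences of the same sign, 0.35 for Csnk1d and 0.15 for Ctnnb1. The authors' deposited table holds part of the probes, and the same model on it gave -0.29 for Csnk1d and -0.57 for Ctnnb1, opposite in sign. There the probe was picked by its mean after each probe's median was taken off, so it need not be the brighter probe. Whether the sign turned with the choice of probe was not tested. Btrc, which marks beta-catenin for degradation, rose by 0.51 (adjusted p = 3.76e-06), with a sign that turned under the 75th percentile scale. Apc, a scaffold of the complex that degrades beta-catenin, fell by 0.93 on the brighter probe (adjusted p = 4.02e-05), while its dimmer probe gave 0.29.

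Beside Lef1 in the nucleus, 2 of 5 partners rose and none fell. The corepressor genes Tle2 and Tle3 rose by 1.36 (adjusted p = 3.02e-06) and 0.55 (adjusted p = 0.0449), of which Tle3 did not pass under a slide block (0.24, adjusted p = 0.515), and Cby1 (-0.18, adjusted p = 0.209) and Tle4 (0.09, adjusted p = 0.407) did not pass. Among 13 genes known as Wnt targets in some tissue, 6 rose and 2 fell. Birc5, an inhibitor of cell death that also serves mitosis, rose by 2.31 (adjusted p = 8.03e-05), and the 7 proliferation genes tested all rose too. By obesity group Birc5 passed in OP (2.58, adjusted p = 0.00224) and OR rats (3.45, adjusted p = 0.00330, limma). In LC rats its unadjusted p was not under 0.05, and 3 of the 7 proliferation genes passed there, against 7 in OP and 7 in OR rats. Tnfrsf19 rose by 0.66 (adjusted p = 1.16e-05) and Fosl1 by 0.72 (adjusted p = 4.65e-04), and the sign of each turned under a 75th percentile scale. Tbx3, a transcription factor of mammary development, rose by 1.16 (adjusted p = 8.40e-04). By obesity group it passed in LC rats (2.36, adjusted p = 6.27e-04) and not in OP rats (0.90, adjusted p = 0.0661, limma). In OR rats its unadjusted p was not under 0.05. Axin2, the target most widely used as a readout of the canonical branch, fell by 0.48 (adjusted p = 0.00164) and was named after its value was seen. By obesity group its difference passed in OR rats only (-0.999, adjusted p = 0.00388, limma), which had 2 normal tissues. In OP and LC rats its unadjusted p was not under 0.05. The OP and OR differences were not shown to differ (0.678, unadjusted p = 0.0283, limma), as this did not pass after adjustment. None of the 42 genes passed between obesity groups within a tissue.

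**Figure D5:**
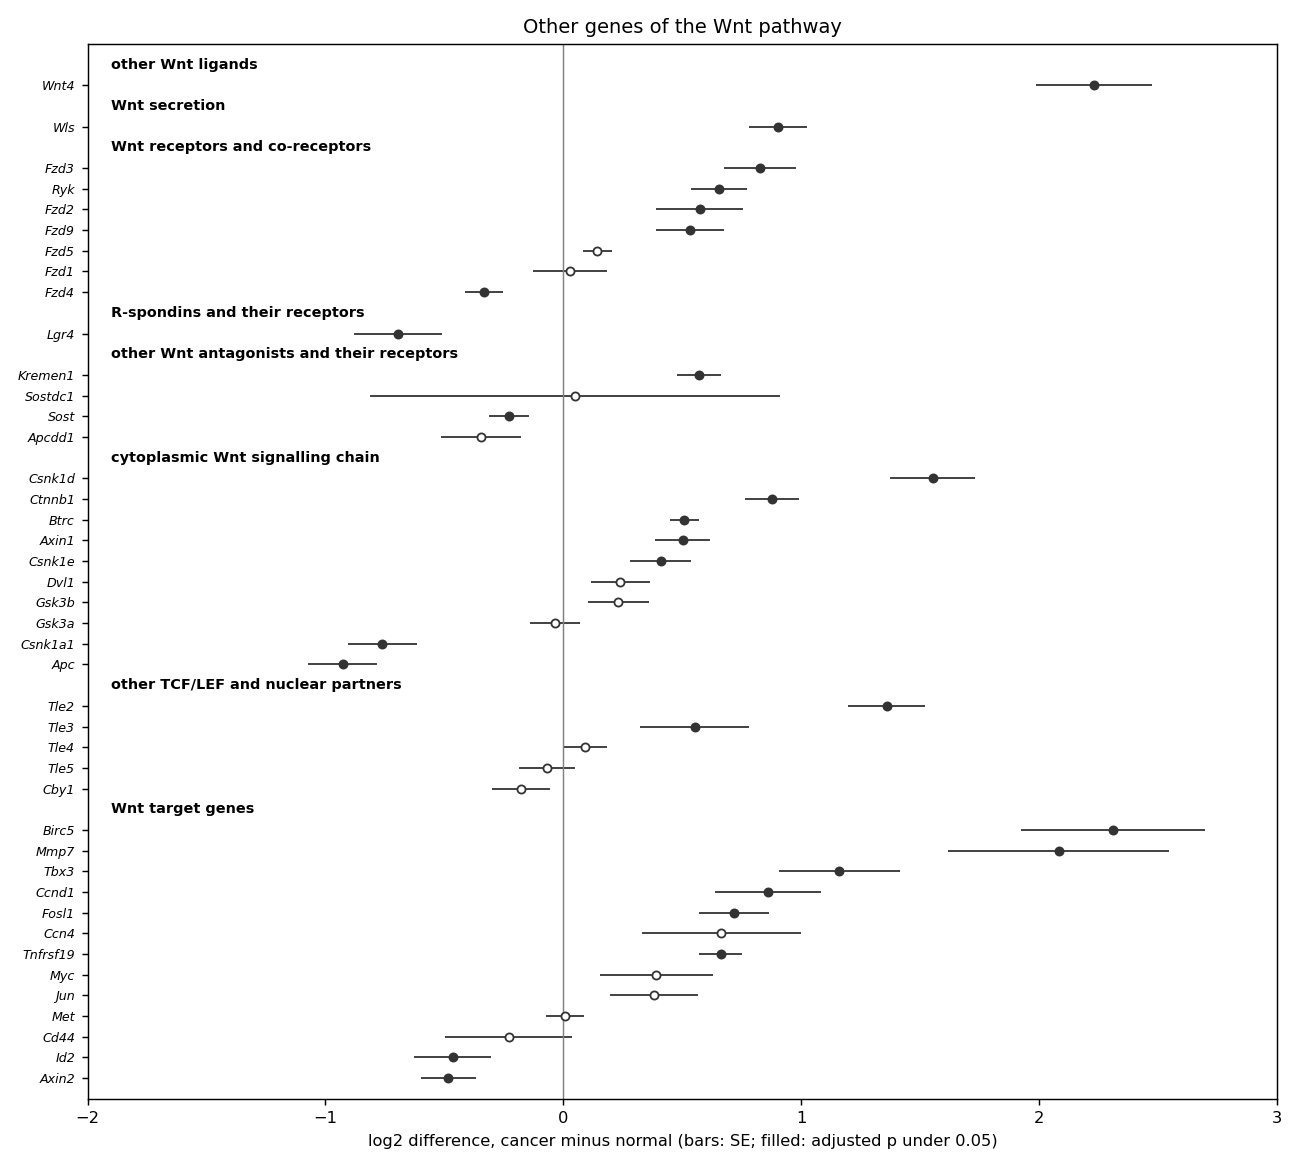
Cancer minus normal tissue on the log2 scale (x axis) for 42 other Wnt pathway genes in 8 lists (y axis), with SE bars. Filled points passed an adjusted p of 0.05, 20 to the right of 0 and 7 to the left, with Birc5 and Wnt4 farthest to the right and Apc farthest to the left.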

How the data were processed

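Cy3-labelled RNA from frozen tissue had been read on 20 Agilent arrays of the rat genome in 1 colour. Intensity values of the spots and of their surroundings, a processed signal and quality flags (other) stand in the scanner files, per the file headers. The submitters' processing notes name Agilent Feature Extraction 10.7.3.1, and the file headers name 9.5.1.1. The authors' deposited table gives log2 values. Set against the scanner files, these equal the processed signal scaled to the 75th percentile of its array, with each probe's median taken off (correlation 0.999996 over 20793 probes), with array medians of -0.15 to 0.24. It covers 3 of the 6 member probes (Wnt5a, Wnt7b and Dkk3).

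Background was corrected by normexp (offset 50) on median spot and background signals, as the mean spot signal was not in the files, and arrays were quantile-normalized. Of 41012 probes, 121 with an outlier flag and 825 dim ones (under a share of 0.5 of arrays well above background in all groups) were left out. Names came from RefSeq accessions (8991 of 13948 matched), and the brightest probe stood for a gene. In the deposited table each probe's median is taken off, and the probe with the highest mean of those values stood for a gene. R 4.3.3 with limma 3.58.1 fitted all arrays for cancer against normal (group means averaged over OP, OR and LC with equal weight), and each tissue alone for obesity groups, with Benjamini-Hochberg adjustment over all genes. Adjusted p-values are limma's. Correlations used 100000 permutations (Python 3.11.15, scipy 1.17.1), and figures used matplotlib 3.10.9.

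All members were named, and of each pathway list up to 4 tested genes with the smallest p. The members and all lists were chosen with earlier results of these data known.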

Additional observations from a re-analysis of the deposited data

How the results depend on the processing

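Of 1436 values of single members under other settings or without 1 sample, 1389 kept their direction or were not called and stayed on their side of the threshold, 28 lost their call, 10 gained one and 9 reversed. Of the 1389, 88 changed sign without a call. Wnt5a in cancer against normal passed in all 13 settings tried, from 1.49 to 2.16, and without each sample in turn, from 1.87 to 2.19. Lef1 stayed positive in all 12 but lost its call with normexp and the 75th percentile (0.74, adjusted p = 0.0717), under a block for slide or for scan day, and on scan day 2 alone (1.38, adjusted p = 0.115). The reversed values were all of Wnt7b. Cancer minus normal was -1.32 by the 75th percentile, -1.32 in the authors' deposited table and -0.87 by normexp and the 75th percentile, and in the same order -1.29, -1.29 and -0.90 in OP and -1.17, -1.17 and -0.87 in OR rats. Under these settings the median of all genes was -1.49, -0.24 and -0.78, in place of -0.03. The share of calls that were higher in cancers was 18.1%, 37.2% and 18.0%, in place of 46.4%. The deposited table has the same scaling as the first of these and held 18349 genes, so its median and share are of fewer genes. Under a block for scan day Wnt7b was called higher (0.22, adjusted p = 0.0460). In LC rats Wnt7b was -0.01 in the main fit, and in 3 of 12 other settings it gained a call as lower. These calls kept their sign and so are not among the reversed ones. Over the 12 settings its LC value ran from -1.51 to 0.14.

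The count of members called for cancer against normal, 2, became 1 with slide as a block and 3 by the 75th percentile, where Wnt7b was called lower, and stayed at 2 without each sample. In LC rats it became 1 with array weights, the mean of probes, only LC arrays, scan day as a block or slide as a block, and ran from 1 to 3 without each sample. In OP rats it became 4 with array weights, 0 with slide as a block and 1 with a replicate block, and ran from 1 to 2 without each sample. In OR rats it became 2 by the 75th percentile and 0 with scan day or slide as a block, and ran from 0 to 1 without each sample. By the 75th percentile the genes called among all 36038 went from 22496 to 29109 over all arrays and from 10238 to 23316 in OR rats. For the other settings no count of all genes is set beside these. The shifts therefore do not show that the members depend on the setting more than other genes do. Wnt5a in OR rats also lost its call by normexp and the 75th percentile, in the authors' deposited table (1.62, adjusted p = 0.0619) and under either block. In every setting and without each sample, 0 members passed limma's test between obesity groups or in the difference between them. The number of pairs with an adjusted p under 0.05 for r, 1 with p-values that run too small, became 0 by the 75th percentile. Without centring it stayed at 1, Dkk3 and Lef1, with r of 0.78 (permutation p = 0.00201, adjusted p = 0.0201). That value takes in differences between obesity groups, and by Spearman's rho, 0.69, the pair did not pass (permutation test, adjusted p = 0.160). The causes were not tested. Replicate numbers were not shown to pair the samples. Over 40 pairs of same-numbered samples the correlation of deviations ran from -0.35 to 0.28, and 5 exceeded 0.1. Samples with different numbers were not compared, so these values cannot tell paired from unpaired samples. With the replicate block Wnt5a was 1.92 (adjusted p = 1.95e-04), Lef1 1.34 (adjusted p = 0.0368) and Lef1 in OP rats 2.05 (adjusted p = 0.0760). The settings for scan day 2, for slide with 1 LC tissue left out, for the dimmer Sfrp4 probe and for pairs within a scan day were chosen after seeing the data.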

Other observations

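The ligand Wnt4 had its largest difference in lean controls. Cancer minus normal tissue was 1.40 in OP (adjusted p = 0.00576), 1.56 in OR (adjusted p = 0.0218) and 3.73 in LC rats (adjusted p = 9.73e-06, limma). The OP difference was smaller than the LC one by 2.34 (unadjusted p = 6.68e-04, adjusted p = 0.154), which did not pass. In normal tissue Wnt4 was higher in OP than in LC rats by 1.99 (unadjusted p = 7.11e-04, adjusted p = 0.182), and higher in OR than in LC rats by 1.63 (adjusted p = 0.274), neither of which passed. Luminal markers moved the same way. The median difference of the 10 luminal genes was 1.10 in OP and 2.55 in LC rats, their median interaction of OP with LC was -1.48 (7 of 10 with an unadjusted p under 0.05, 0 after adjustment, limma), and in normal tissue OP exceeded LC by 1.27. The mean of the list was 11.92 in OP and 10.75 in LC normal tissue, and its part in the Wnt4 levels was not tested. Wnt4 was singled out here after its values were seen.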
